A study of Mus musculus with 11 samples.

Results

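The genes described here are 5 acyl-CoA thioesterase genes (Acot1, Acot2, Acot7, Acot9 and Acot13) and the acyl-CoA synthetase gene Acsm5, 6 of the 23420 genes in the deposited table of mouse heart RNA. They were chosen by their symbols, with results of these same comparisons known, so their values are given as a description and carry no p-value of their own. Each of the 6 was among the 12976 genes whose mean normalized count over the libraries was at least 10.

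The study sequenced ribosome-depleted total RNA of mouse heart in 11 libraries and addressed what loss of the fatty acid transporter Cd36 in different cells does to heart gene expression. The strain label of every library names a cross of Cd36 loxP mice, and neither age nor sex is given. Control comprised 2 libraries whose labels name no Cre. EC KO (3 libraries) lacked Cd36 in endothelial cells through Tie2-cre, MHC KO (3 libraries) lacked it in cardiomyocytes through MHC-cre, and Total KO (3 libraries) carried a total Cd36 knockout whose construction is not stated. Nothing in the labels says that libraries of a group came from separate animals, so every test measures the spread between libraries, which may be technical. Each label carries a number of unstated meaning, and MHC KO and Total KO each have a run of numbers of their own, whereas EC KO and Control share a run. Values come from whole hearts, in which fewer cells of a type and less RNA per cell cannot be told apart. Because no label names a Cre without loss of Cd36, Tie2-cre or MHC-cre itself and loss of Cd36 cannot be told apart either.

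A fatty acid is joined to coenzyme A before it is oxidised or built into lipid, and acyl-CoA synthetases carry out that step. Acyl-CoA thioesterases run the opposite reaction and split acyl-CoA into free fatty acid and coenzyme A. In the heart, Acot1 (cytosolic) and Acot2 (mitochondrial) are known targets of the nuclear receptor PPAR-alpha, which senses fatty acids. Acot13, also called Them2, is associated with mitochondria, Acot9 is mitochondrial, and Acot7 is cytosolic and abundant in neurons. Acsm5 belongs to the mitochondrial synthetases for medium-chain fatty acids, so it is the only one of the 6 that makes acyl-CoA.

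Depth ranged from 11157062 to 20105673 recovered reads in 10 libraries, while EC KO replicate 1 held 2268403, in which 1 read corresponded to a normalized count of 6.04. Cd36 averaged 39977 ± 6438 in Control, 27957 ± 2278 in EC KO, 19589 ± 3290 in MHC KO and 21188 ± 2303 in Total KO (mean ± SD, here and below over n = 2 Control libraries and n = 3 libraries of a knockout group). Limma called Cd36 (adjusted p under 0.05) against Control in MHC KO (log2 difference -1.03 ± 0.17 SE). It did not call Cd36 in EC KO (-0.51 ± 0.17 SE) or Total KO (-0.91 ± 0.17 SE). The MHC KO difference was -0.87 without Control replicate 1, and was not called in a fit to those 2 groups alone. DESeq2 called the Total KO difference (-0.92). The exons deleted are not given in the labels, so residual Cd36 reads do not measure how complete a deletion was. Summed cardiomyocyte markers (8 genes, among them Myh6 and Tnnt2) were 1140593 to 1150086 for Control, 1215730 to 1299765 for EC KO, 701570 to 1030362 for MHC KO and 1192780 to 1275573 for Total KO. In MHC KO, replicate 1 had the lowest cardiomyocyte sum (701570) and the highest sum of 7 fibroblast markers (74951, against 15647 and 15838 in Control). Compared with Control in limma's fit, 3 of 7 fibroblast and 5 of 5 macrophage markers were higher in MHC KO, against 3.29% of all genes. In the same comparison 0 of 8 cardiomyocyte and 0 of 8 endothelial markers passed.

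Acot1 and Acot2 are neighbours and near copies, which bears on how far their counts can be told apart. On the GRCm38 (mm10) build, Acot2 lies at chr12:83987861-83993873 and Acot1 at chr12:84009490-84018371, both on the plus strand with 3 exons, 15616 bases apart. Acot4, Acot3, Acot5 and Acot6 follow on the same strand, and the 6 genes span 123489 bases. Over 1236 aligned coding bases, Acot1 and Acot2 were identical at 1178 (95.3%). The longest run that both coding sequences share without a mismatch is 273 bases (Acot1 bases 887 to 1159, Acot2 bases 1010 to 1282, counted from the start codon). Just before it lies the 90-base stretch with the most differences, 14 of them, set in capitals below (Acot1 bases 797 to 886, Acot2 bases 920 to 1009). Reads from the shared run could belong to either gene, and reads from the stretch with capitals could be assigned.
Shared by Acot1 and Acot2: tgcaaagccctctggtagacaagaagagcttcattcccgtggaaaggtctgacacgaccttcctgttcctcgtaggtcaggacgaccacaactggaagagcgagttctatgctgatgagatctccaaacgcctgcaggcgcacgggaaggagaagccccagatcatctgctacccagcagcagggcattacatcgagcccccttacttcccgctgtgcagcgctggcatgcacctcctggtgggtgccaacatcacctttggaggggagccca
Acot1 stretch with most differences: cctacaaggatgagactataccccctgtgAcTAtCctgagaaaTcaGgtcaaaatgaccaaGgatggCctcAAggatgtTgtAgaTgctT
Acot2 stretch with most differences: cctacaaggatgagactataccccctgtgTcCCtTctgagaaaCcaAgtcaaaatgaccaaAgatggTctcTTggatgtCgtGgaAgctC

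The Acot2 coding sequence starts with 123 bases that have no aligned part in Acot1, which encode the start of a protein that is imported into mitochondria. They are shown because the aligned Acot1 coding sequence has no counterpart to them.
Acot2 coding bases 1 to 123: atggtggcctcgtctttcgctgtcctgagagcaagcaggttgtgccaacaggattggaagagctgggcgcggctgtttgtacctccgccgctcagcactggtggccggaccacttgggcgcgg

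Of all 50-base windows in the GENCODE transcript of Acot1, 33.6% occurred without a mismatch in a transcript of another gene, and for Acot2 this was 27.7%. With 100-base windows the shares were 21.9% and 17.1%. For Acot9, 20.2% of 50-base windows also occurred in Acot10, a single-exon gene with 97.2% identical coding sequence, and 0.968% of 100-base windows did. No window of Acot7, Acot13 or Acsm5 was shared with another gene. Read length and the handling of reads that map to several places are not given in the sources used here, so the split of counts between Acot1 and Acot2 is uncertain.

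**Figure D1:**
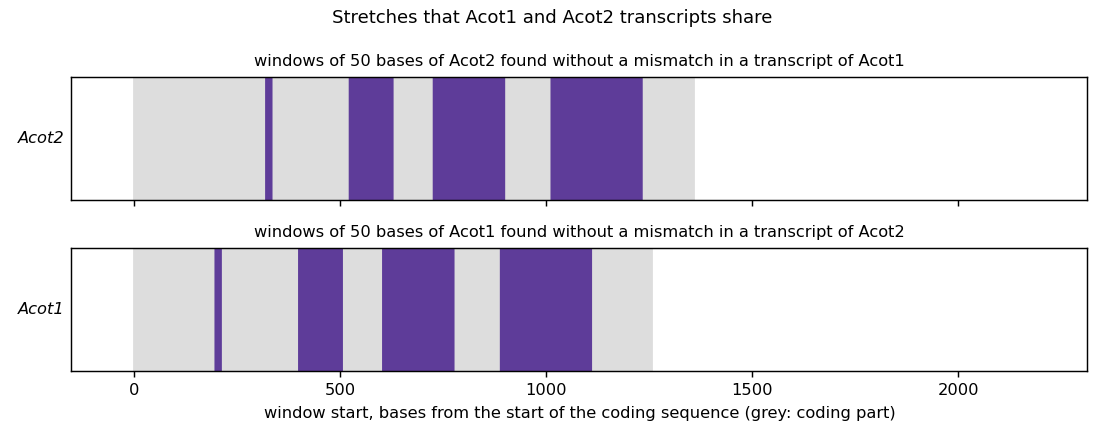
Starts of 50-base windows (purple) that Acot1 and Acot2 transcripts share without a mismatch, by distance in bases from the start of the coding sequence; grey marks the coding part. The shared windows all fall inside the coding part, and the last block holds the 273-base run.

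Acot2, the mitochondrial enzyme of the pair, was lower than Control in all 3 knockout groups and by a similar amount. The Control libraries held normalized counts of 2912 and 2817. EC KO libraries held 1305, 1426 and 1275, MHC KO libraries 1024, 1566 and 1660, and Total KO libraries 1096, 1623 and 1736. Each of the 9 knockout libraries lay below both Control libraries, and the lowest Control value was 1.62 times the highest knockout value. How many of all genes showed such a separation was not counted, here or for the genes below. From a Control mean of 2865 ± 67.1, EC KO averaged 1335 ± 79.8 (46.6% of Control), MHC KO 1417 ± 343 (49.5%) and Total KO 1485 ± 342 (51.8%). Relative to Control, the log2 difference came to -1.10 ± 0.21 (SE, here and below) for EC KO, -1.05 ± 0.21 for MHC KO and -0.98 ± 0.21 for Total KO. Between the knockout groups the values overlapped, with log2 differences of -0.06 (EC KO minus MHC KO), 0.07 (Total KO minus MHC KO) and 0.13 (Total KO minus EC KO), each ± 0.19.

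By limma, with Benjamini-Hochberg adjustment over all genes tested, Acot2 was called (adjusted p under 0.05) in MHC KO against Control and not in EC KO or Total KO against Control. The EC KO difference was the larger, with the same SE. Adjustment was made within each contrast, and limma called 5.7% of all genes in MHC KO against 0.316% in EC KO. The calls therefore do not rank the groups by strength of the Acot2 difference. The difference from Control called in MHC KO was no longer called without Control replicate 1 (-1.02), without Control replicate 2 (-1.07), or in a fit to those 2 groups alone (-1.05). The EC KO difference was called by edgeR (-1.10), by DESeq2 (-1.10), without MHC KO replicate 1 and without Total KO replicate 1 (-1.10 each). The Total KO difference was called by DESeq2 (-0.95) and without MHC KO replicate 1 (-0.98). Over the 22 alternative fits the difference lay within -1.15 to -1.07 in EC KO, -1.18 to -0.83 in MHC KO and -1.10 to -0.77 in Total KO.

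Acot1, the cytosolic enzyme, was also below Control in each knockout library, with more spread. Control libraries stood at 1063 and 713. EC KO libraries stood at 526, 531 and 407, MHC KO libraries at 208, 299 and 317, and Total KO libraries at 163, 422 and 485. The lowest Control library was 1.34 times the highest knockout library, and MHC KO lay wholly below EC KO, while Total KO overlapped both. The Control mean was 888 ± 247, and EC KO averaged 488 ± 70.3 (54.9% of Control), MHC KO 274 ± 58.7 (30.9%) and Total KO 357 ± 171 (40.1%). The log2 difference from Control was -0.85 ± 0.37 in EC KO, -1.69 ± 0.37 in MHC KO and -1.43 ± 0.37 in Total KO, of which limma called that in MHC KO. This call was lost without Control replicate 1 (-1.40) and without MHC KO replicate 1 (-1.50). Total KO replicate 1 held the lowest Acot1 value of all libraries, and without it the Total KO difference was -0.94. EC KO and MHC KO differed by 0.84 ± 0.33 for Acot1, which limma called without Total KO replicate 1 and in the fit to those 2 groups, and not otherwise. Total KO minus MHC KO was 0.25 ± 0.33 with all libraries and 0.74, and called, without Total KO replicate 1.

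Dividing Acot2 by Acot1 counts gave 2.74 and 3.95 for Control and 2.48, 2.69 and 3.13 for EC KO. In MHC KO it was 4.94, 5.25 and 5.23, above every Control and EC KO library. In Total KO it was 6.73, 3.85 and 3.58, with replicate 1 apart from the others. Since shared reads may be split between the 2 genes, their sum was also taken, which does not recover reads that were dropped. The Control libraries summed to 3976 and 3531, those of EC KO to 1831, 1957 and 1682, those of MHC KO to 1232, 1865 and 1977, and those of Total KO to 1259, 2045 and 2220. The group means of the sum came to 48.6% of Control in EC KO, 45.1% in MHC KO and 49.1% in Total KO. Fitted as 1 feature, the pair differed from Control by -1.04 ± 0.23 in EC KO, -1.18 ± 0.23 in MHC KO (called) and -1.07 ± 0.23 in Total KO. For the sum, EC KO minus MHC KO was 0.14 ± 0.21. Acot2 counts were 2.48 to 6.73 times those of Acot1, so the sum mostly follows Acot2, whose own difference was -0.06 ± 0.19. The sum therefore cannot show whether the Acot1 difference between these groups depends on how reads were assigned.

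**Figure D2:**
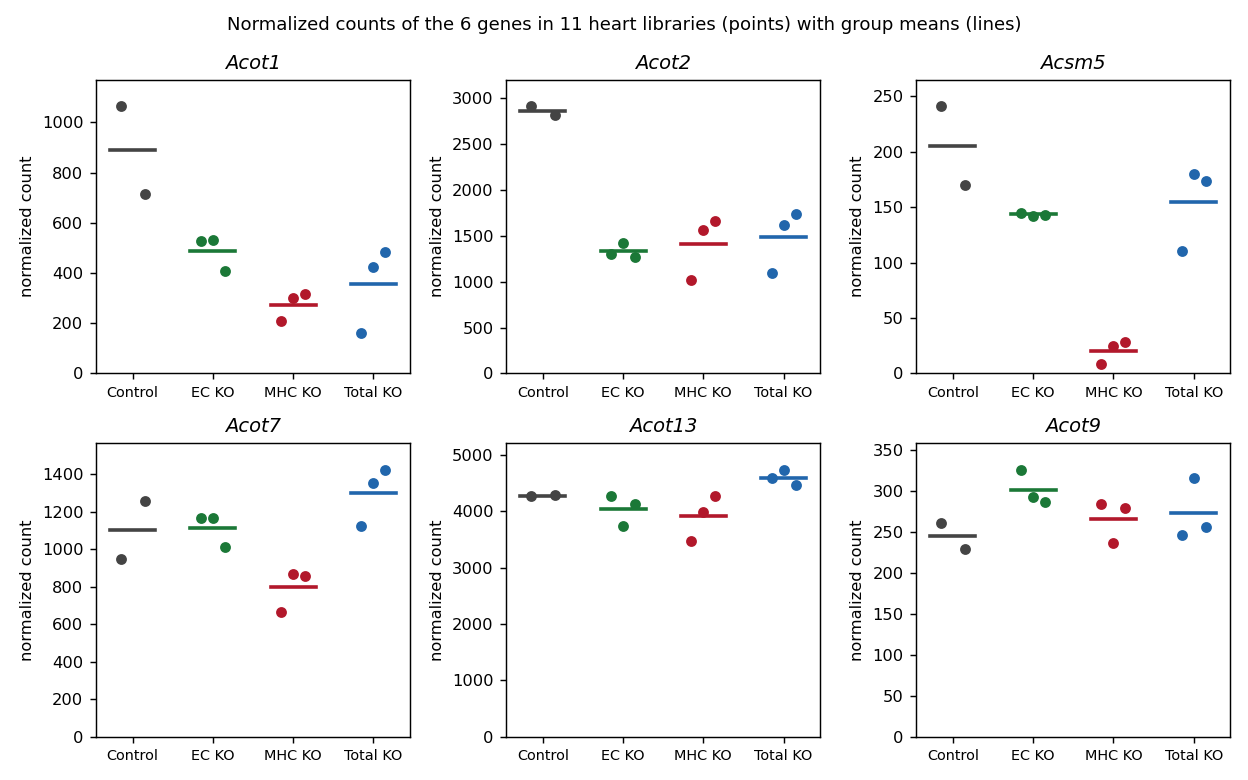
Normalized counts (linear axes from 0) of the 6 genes in each library (points) of Control, EC KO, MHC KO and Total KO, with group means (lines). Acot1 and Acot2 were below both Control libraries in all 9 knockout libraries, and Acsm5 stood at 8.49 to 28.6 in MHC KO against 111 to 241 elsewhere.

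Because Acot1 and Acot2 were lower together and PPAR-alpha binds a known DNA element, their promoters were searched for it. Promoters of 5 members were found in the RefSeq table (GRCm38.p6), and none was found for Acot13. The windows of Acot7 (chr4:152185358-152185607) and Acsm5 (chr7:119526015-119526264) lie inside the GENCODE spans of these genes, so sequence before the span starts was not searched for them. The 250 bases before the start site were read on both strands for the exact 6-base element AGGTCA and for DR1, a direct repeat of that element with 1 base between the copies. DR1 was allowed at most 3 mismatches in its 12 fixed bases. The exact element was in none of the 5 promoters, and 14.0% of all 32851 promoters held it. A DR1 match was in 1 of the 5, that of Acot2, with 3 mismatches (capitals in the Acot2 line), and 21.3% of all promoters held such a match. A match here is a description of letters and not a binding site. The Acot1 window is chr12:84009252-84009501 and the Acot2 window chr12:83987611-83987860, both plus strand. The GENCODE span of Acot1 starts at 84009490, so the last bases of its window lie inside that span.
Acot1 promoter: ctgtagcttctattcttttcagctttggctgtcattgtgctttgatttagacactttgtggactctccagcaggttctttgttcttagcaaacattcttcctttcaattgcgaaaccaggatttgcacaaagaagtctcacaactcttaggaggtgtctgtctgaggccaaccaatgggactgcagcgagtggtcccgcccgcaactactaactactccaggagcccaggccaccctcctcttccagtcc
Acot2 promoter: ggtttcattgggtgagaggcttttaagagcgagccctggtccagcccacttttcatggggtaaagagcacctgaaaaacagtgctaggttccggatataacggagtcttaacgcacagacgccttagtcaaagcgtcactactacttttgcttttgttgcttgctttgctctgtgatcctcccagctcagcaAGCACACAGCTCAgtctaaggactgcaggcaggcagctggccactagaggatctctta

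Acsm5, the medium-chain synthetase at chr7:119519463-119545551 (plus strand, 14 exons), was nearly lost from MHC KO hearts. Control libraries stood at 241 and 170, EC KO libraries at 145, 142 and 143, and Total KO libraries at 111, 180 and 174. The MHC KO libraries stood at 8.49, 24.6 and 28.6, which are 11, 38 and 35 reads. All 3 MHC KO libraries thus lay far below the other 8, whose lowest value was 111, while EC KO and Total KO lay below or within the Control range. The Control mean was 205 ± 50.2, and EC KO averaged 143 ± 1.44 (69.8% of Control), MHC KO 20.6 ± 10.7 and Total KO 155 ± 38.2 (75.3% of Control). The close agreement of the EC KO libraries includes replicate 1, whose value rests on 24 reads.

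The log2 difference of Acsm5 from Control was -3.40 ± 0.39 in MHC KO, -0.49 ± 0.39 in EC KO and -0.42 ± 0.39 in Total KO. Against MHC KO, Acsm5 was higher by 2.90 ± 0.35 in EC KO and by 2.98 ± 0.35 in Total KO. Limma called the MHC KO difference from Control and both of these differences, and all 22 alternative fits called them too. Across those fits the MHC KO difference from Control ranged from -3.71 to -2.88. EC KO and Total KO differed by 0.08 ± 0.35 for Acsm5 and overlapped.

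Marker sums of several cell types moved with this group, while cell composition itself was not measured. In MHC KO replicates 2 and 3 the cardiomyocyte marker sums were 1030362 and 976939, against 1140593 in the lower Control library, while Acsm5 was at 24.6 and 28.6 against 170. Their fibroblast marker sums were 23953 and 31198, against 15647 and 15838 in Control, and the macrophage sums of MHC KO were 6650 to 12874, against 3556 to 3883. The library with the lowest Acsm5 value, MHC KO replicate 1, was also that with the lowest cardiomyocyte sum. The part of these markers in the Acsm5 difference was not tested. MHC KO and Total KO each have a run of label numbers of their own, so in each of these groups genotype and whatever the numbers stand for cannot be told apart. No group has MHC-cre without loss of Cd36, so in MHC KO the Cre itself and loss of Cd36 cannot be told apart. Acsm5 overlaps Pdilt on the opposite strand, and the strand setting of the counting is not given in the sources used here, so reads of the 2 genes may not have been separated.

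Of the Acsm family, Acsm5 was the only gene with a mean of at least 10 in these hearts. The highest library value was 9.33 for Acsm2 and 6.04 for Acsm3, which is 1 read in EC KO replicate 1. Acsm1 reached 1.67 and Acsm4 0.77. The coding sequence of Acsm3 was 64.1% identical to that of Acsm5.

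Acot7, a cytosolic thioesterase known from neurons, was lower in MHC KO than in every other library. The Control libraries read 945 and 1255, EC KO 1166, 1163 and 1010, MHC KO 667, 867 and 857, and Total KO 1120, 1350 and 1422. MHC KO did not overlap any other group, and its highest library (867) was close to the lowest of the other 8 (945). Against a Control mean of 1100 ± 219, EC KO averaged 1113 ± 89.5 (101% of Control), MHC KO 797 ± 113 (72.4%) and Total KO 1297 ± 158 (118%). The differences from Control were 0.03 ± 0.15 in EC KO, -0.46 ± 0.15 in MHC KO and 0.24 ± 0.15 in Total KO, none of them called by limma.

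Against MHC KO, Acot7 was higher by 0.49 ± 0.14 in EC KO and by 0.70 ± 0.14 in Total KO, and limma called both. The Total KO difference was called in all 22 alternative fits, within 0.57 to 0.81. The EC KO difference was not called when MHC KO replicate 1 (0.37), EC KO replicate 1 (0.45) or EC KO replicate 2 (0.45) was left out, nor after rescaling to library totals (0.37). Rescaling to library totals moved the median of all genes in EC KO minus MHC KO to -0.12, and in Total KO minus MHC KO to -0.14, so the Acot7 difference relative to that median changed less. Neuron and glia markers were sparse: Snap25 was at 0 in all 11 libraries, and the sum of the 6 markers was 383 to 754 in MHC KO, 301 to 355 in Control, 187 to 259 in EC KO and 211 to 270 in Total KO. Their part in the Acot7 values was not tested. Acot7 lies at chr4:152178134-152271855 (plus strand, 9 exons) and overlaps the predicted genes Gm27500 and Gm13096.

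Acot13 was the most abundant of the 6 and varied least. Control stood at 4272 and 4286, EC KO at 4266, 3747 and 4125, MHC KO at 3478, 3984 and 4280, and Total KO at 4598, 4737 and 4463. Total KO lay above all other libraries by a small margin, and the remaining groups overlapped. Means were 4279 ± 10.2, 4046 ± 268, 3914 ± 405 and 4599 ± 137, which put the knockout groups at 94.6%, 91.5% and 107% of Control. The log2 differences from Control were -0.08 in EC KO, -0.13 in MHC KO and 0.10 in Total KO, each ± 0.10, and that between Total KO and MHC KO was 0.24 ± 0.09. None was called. Acot13 lies at chr13:24817948-24831540 (minus strand, 3 exons).

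Acot9, a mitochondrial thioesterase on the X chromosome (chrX:155262443-155297654, plus strand, 15 exons), was the only thioesterase of the 5 whose mean was above Control in every knockout group. The Control libraries read 261 and 230, EC KO 326, 294 and 286, MHC KO 284, 236 and 280, and Total KO 247, 316 and 257. EC KO lay above Control without overlap, whereas MHC KO and Total KO overlapped Control. Means were 245 ± 22.3, 302 ± 21.2 (123% of Control), 267 ± 26.3 (109%) and 273 ± 37.5 (111%). The differences from Control were 0.30 ± 0.14, 0.12 ± 0.14 and 0.15 ± 0.14 in EC KO, MHC KO and Total KO, none of them called. Acot10, the near copy of Acot9, averaged 191 ± 28.2 in Control, 208 ± 15.4 in EC KO, 200 ± 10.6 in MHC KO and 186 ± 26.6 in Total KO.

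**Figure D3:**
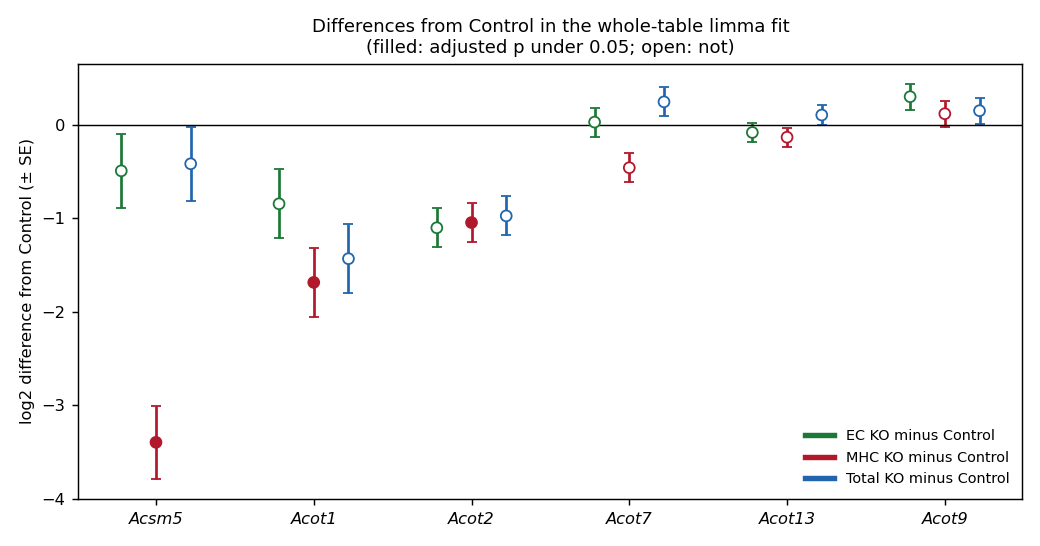
Log2 difference from Control (± SE) of the 6 genes in EC KO, MHC KO and Total KO, from limma's fit to all genes; filled points were called at an adjusted p under 0.05. Acot2 lies near -1 in all 3 groups, Acsm5 at -3.40 in MHC KO alone, and Acot7, Acot13 and Acot9 lie within 0.5 of 0.

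The counts of members called are set beside those of all 12976 genes, and since the members were chosen on these comparisons nothing is read from them. Between EC KO and Control, limma called 0.316% of all genes and 0 of 6 members, with 2 members at an unadjusted p under 0.05, and edgeR and DESeq2 each called 1, Acot2. Between MHC KO and Control it called 5.7% of genes and 3 of 6 members, all lower, and 1 of 6, Acsm5, without Control replicate 1. Between Total KO and Control it called 0.0848% of genes and 0 of 6 members, with 2 members at an unadjusted p under 0.05, 0 called by edgeR and 1, Acot2, by DESeq2. Between EC KO and MHC KO 19.1% of genes and 2 of 6 members were called (1 of 6, Acsm5, when EC KO replicate 1, EC KO replicate 2 or MHC KO replicate 1 was left out), and between Total KO and MHC KO 16.4% and 2 of 6. Between Total KO and EC KO 0.0385% of genes and 0 of 6 members were called, with 0 members at an unadjusted p under 0.05 and 0 by edgeR or DESeq2. The members' median log2 difference from Control was -0.29 in EC KO, -0.75 in MHC KO and -0.16 in Total KO, against -0.01, 0.00 and 0.00 over all genes. The 3 comparisons with Control share the same 2 Control libraries.

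Per kb of transcript, Acot13 had by far the highest mean level of the 6 over the 11 libraries, 5830 normalized counts. It was followed by Acot2 (763), Acot7 (714), Acot1 (205), Acot9 (157) and Acsm5 (41.7). Acot2 and Acot7 were neighbours whose ranges over the libraries overlapped (467 to 1326 and 443 to 945), as did those of Acot1 (71.7 to 468) and Acot9 (131 to 186). The order depended on the group: Acot7 stood above Acot2 in EC KO (740 against 608) and Total KO (862 against 676), and Acot9 above Acot1 in MHC KO (152 against 121). The most abundant other thioesterase genes, Acot10 (128), Them4 (114), Acot11 (99.8), Acot8 (98.6) and Them6 (87.8), ranked between Acot9 and Acsm5. Of the paralogs that share the chromosome 12 cluster, Acot6 (10.7), Acot4 (4.37) and Acot3 (3.02) were low, and Acot5 was listed at 0 in every library. Acot3 and Acot4 both overlap the predicted gene Gm49366 on the same strand, so some of their reads may not have been assigned to them.

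**Figure D4:**
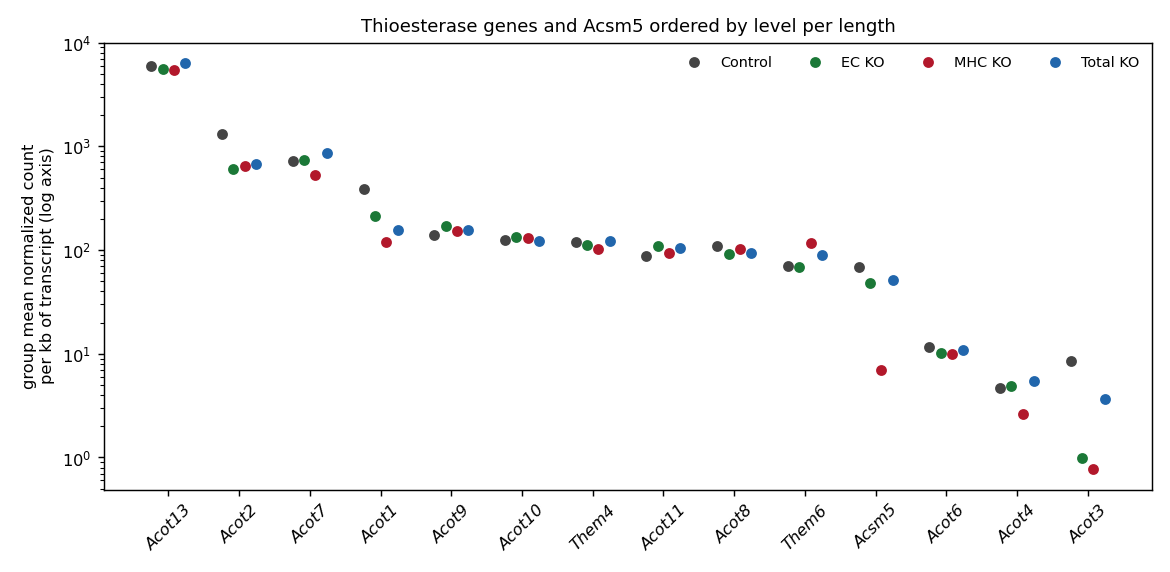
Group mean normalized count per kb of transcript (log axis) of the thioesterase genes and Acsm5 with a mean of at least 1 per kb, in order of their mean over 11 libraries. Acot13 stands above all others, and the MHC KO value of Acsm5 falls away from those of the other groups.

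Among the 13 other thioesterase genes, 8 had a mean of at least 10, and limma called 1 of them, Them6, against Control in MHC KO. In that comparison 5.7% of all genes were called. Them6 averaged 125 ± 38.8 in Control, 124 ± 5.25 in EC KO, 208 ± 10.7 in MHC KO and 159 ± 9.66 in Total KO. It was higher in MHC KO by 0.77 ± 0.17 (limma adjusted p = 0.0251), which was not called without Control replicate 1 (0.45), without MHC KO replicate 3 (0.73) or in the fit to those 2 groups (0.77). Limma called 0 of 8 in EC KO and 0 of 8 in Total KO against Control, with 2 and 1 at an unadjusted p under 0.05, and edgeR and DESeq2 also called 0 in each. Between EC KO and MHC KO, where limma called 19.1% of all genes, it called Them6 (EC KO minus MHC KO -0.75 ± 0.15) and Acot4 of the 8. Between Total KO and MHC KO, where it called 16.4% of all genes, it called Acot4. Acot4 was lower in MHC KO than in EC KO (0.84 ± 0.25, limma adjusted p = 0.0365) and Total KO (0.99 ± 0.25, limma adjusted p = 0.0205). Its means were 29.0 ± 4.08 in Control, 30.1 ± 5.50 in EC KO, 16.3 ± 2.17 in MHC KO and 33.6 ± 6.29 in Total KO. The Acot4 difference from EC KO was not called by edgeR (0.78) or DESeq2 (0.78), or when EC KO replicate 1 (0.70), EC KO replicate 2 (0.87), MHC KO replicate 1 (0.77), MHC KO replicate 3 (0.81) or Total KO replicate 1 (0.84) was left out. That from Total KO was not called when MHC KO replicate 1 (0.92), MHC KO replicate 3 (0.96), Total KO replicate 1 (0.99) or Total KO replicate 2 (0.86) was left out.

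Acot3, a peroxisomal paralog in the Acot1 cluster, was sparse. It stood at 26.4 and 32.1 in Control, at 0, 7.53 and 2.65 in EC KO, at 0.77, 3.89 and 3.27 in MHC KO, and at 3.82, 17.9 and 15.8 in Total KO. All 9 knockout libraries lay below both Control libraries, as for Acot1 and Acot2, which were compared with the same Control libraries. The share of all genes with such a separation was not counted. Of the 50-base windows of Acot3, 19.5% also occurred in transcripts of other genes, among them Gm49366 and Acot1. Its log2 differences from Control were -3.26 ± 0.88, -3.18 ± 0.88 and -1.38 ± 0.88 in EC KO, MHC KO and Total KO, and limma called none of them with all libraries. The MHC KO difference was called by edgeR (-3.39) and DESeq2 (-3.45), and by limma when Total KO replicate 1 or either of EC KO replicates 1 and 2 was left out (-3.18 each). With a pseudocount of 5 the differences were -2.12 in EC KO and -2.18, and called, in MHC KO. The 0 in EC KO comes from replicate 1, where 1 read is worth 6.04. Without Total KO replicate 1 the Total KO difference was -0.75.

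The other genes of acyl-CoA handling were taken as lists written with earlier results known. Over all genes tested, limma called 2.4% lower in MHC KO than in Control. Of 14 tested acyl-CoA synthetases, which make acyl-CoA, limma called 2 lower in MHC KO than in Control. They were Acsl1, the main long-chain synthetase of heart (-0.59 ± 0.15, limma adjusted p = 0.0414), and the fatty acid transport protein Slc27a1 (-0.57 ± 0.13, limma adjusted p = 0.0251). Of 13 genes of coenzyme A synthesis, transport and breakdown, 2 were lower. They were Nudt7, a peroxisomal coenzyme A hydrolase (-0.88 ± 0.17, limma adjusted p = 0.0170), and Pank1, which starts coenzyme A synthesis (-0.81 ± 0.21, limma adjusted p = 0.0399). Of 13 genes of carnitine transfer and acyl-CoA binding, 4 were lower: Cpt2 by -0.78, Slc25a20 by -0.76, Cpt1b by -0.66 and Crat by -0.57. In these 3 lists limma called 0 genes in EC KO or Total KO against Control. At an unadjusted p under 0.05 they held 1, 3 and 5 genes in EC KO and 2, 2 and 3 in Total KO. DESeq2 called Slc25a42 in EC KO and Slc27a1 in Total KO, and edgeR called none of these genes. Without Control replicate 1 none of the 8 MHC KO genes was called, with differences from -0.77 (Cpt1b) to -0.65 (Slc27a1). Acsl1 and Crat were called with no single library left out other than MHC KO replicate 2. The list medians in MHC KO were -0.19, -0.17 and -0.23, against 0.00 over all genes.

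Between MHC KO and Control, limma called 2.4% of all genes lower and 3.29% higher. Of 26 tested PPAR target genes other than the members, limma called 8 lower and 1 higher in MHC KO than in Control, and the list median was -0.53. Among them were the fatty acid oxidation genes Ech1 (-1.19 ± 0.24), Eci1 (-1.10 ± 0.17), Decr1 (-0.87 ± 0.16) and Acadvl (-0.84 ± 0.18). The mitochondrial carrier Ucp2 was higher (0.80 ± 0.16). The list medians were -0.31 in EC KO and -0.21 in Total KO, with 7 and 6 genes at an unadjusted p under 0.05. Medians over all genes were -0.004 in MHC KO, -0.01 in EC KO and 0.0003 in Total KO. Of 15 calls of lowest p in these lists between MHC KO and Control, 1 remained called in the fit to those 2 groups alone, 0 without Control replicate 1, 10 without Control replicate 2, and 11 to 15 without any other single library. Without Control replicate 1, Eci1 was at -0.99, Ech1 at -0.90, Acadvl at -0.77, Decr1 at -0.71 and Ucp2 at 0.69. The cardiomyocyte, fibroblast and macrophage markers described above moved with MHC KO here too, and their part in these lists was not tested.

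The genes whose profile over the 11 libraries was most like that of Acot2, Acot1 and Acsm5 were found by the mean absolute difference between profiles of log2(value + 1), each centred on its mean. For Acot2 the closest of 12253 genes was Ephx2, the soluble epoxide hydrolase (distance 0.15), followed by Leprel4 (0.15), Impa2 (0.17), the adrenergic receptor gene Adra1b (0.17) and Hsd17b11 (0.18). Ephx2 averaged 9254 ± 593 in Control, 5326 ± 72.9 in EC KO, 5559 ± 531 in MHC KO and 6043 ± 688 in Total KO. For Acot1 the closest were Map6d1 (0.24), Prrg1 (0.28), the iron exporter Slc40a1 (0.29), Ppp2r3a (0.30) and Cd36 itself (0.31), all closer than Acot2 (0.38). Map6d1 was sparse, with a mean of 10.9, just over the filter of 10. It had from 2 reads (EC KO replicate 1) to 25 reads (Control replicate 1) in a library. Slc40a1 averaged 1440 ± 264 in Control, 736 ± 63.3 in EC KO, 500 ± 65.9 in MHC KO and 773 ± 80.6 in Total KO.

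For Acsm5 the closest were the erythroid antigen gene Rhd (0.36), Tmem150c (0.41), the water channel gene Aqp4 (0.43), Adig (0.49) and the methyltransferase gene Gnmt (0.52). Rhd ranged from 59.6 to 187 in Control, 169 to 197 in EC KO, 8.49 to 29.4 in MHC KO and 174 to 206 in Total KO. Aqp4 averaged 53.4 ± 36.6 in Control, 3.29 ± 2.53 in MHC KO and 27.9 ± 7.81 in Total KO, with 21.7 to 38.0 in EC KO. Adig, an adipocyte marker, averaged 16.5 ± 8.56 in Control, 20.4 ± 8.53 in EC KO, 2.31 ± 1.97 in MHC KO and 23.6 ± 6.94 in Total KO. Of the other 6 adipocyte markers, Lep was at 0 in all libraries and Plin1 at 0 in Control, while the means of Adipoq, Plin1, Cidec, Retn and Cfd were above Control in MHC KO, unlike that of Adig. In Total KO the means of Adipoq (2.81), Plin1 (1.96), Cidec (3.54) and Cfd (11.6) were above Control too, and that of Retn (0.28) was not. Adipoq had 1 and 0 reads in the Control libraries and 6, 4 and 4 in those of MHC KO. Cidec averaged 0.76 ± 0.02 (SD, n = 2) in Control and 5.79 ± 4.50 (SD, n = 3) in MHC KO, and Cfd 4.50 ± 4.17 and 13.5 ± 8.99. These distances describe 11 libraries in 4 groups, and the profile of Acsm5 is set largely by its MHC KO libraries.

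**Figure D5:**
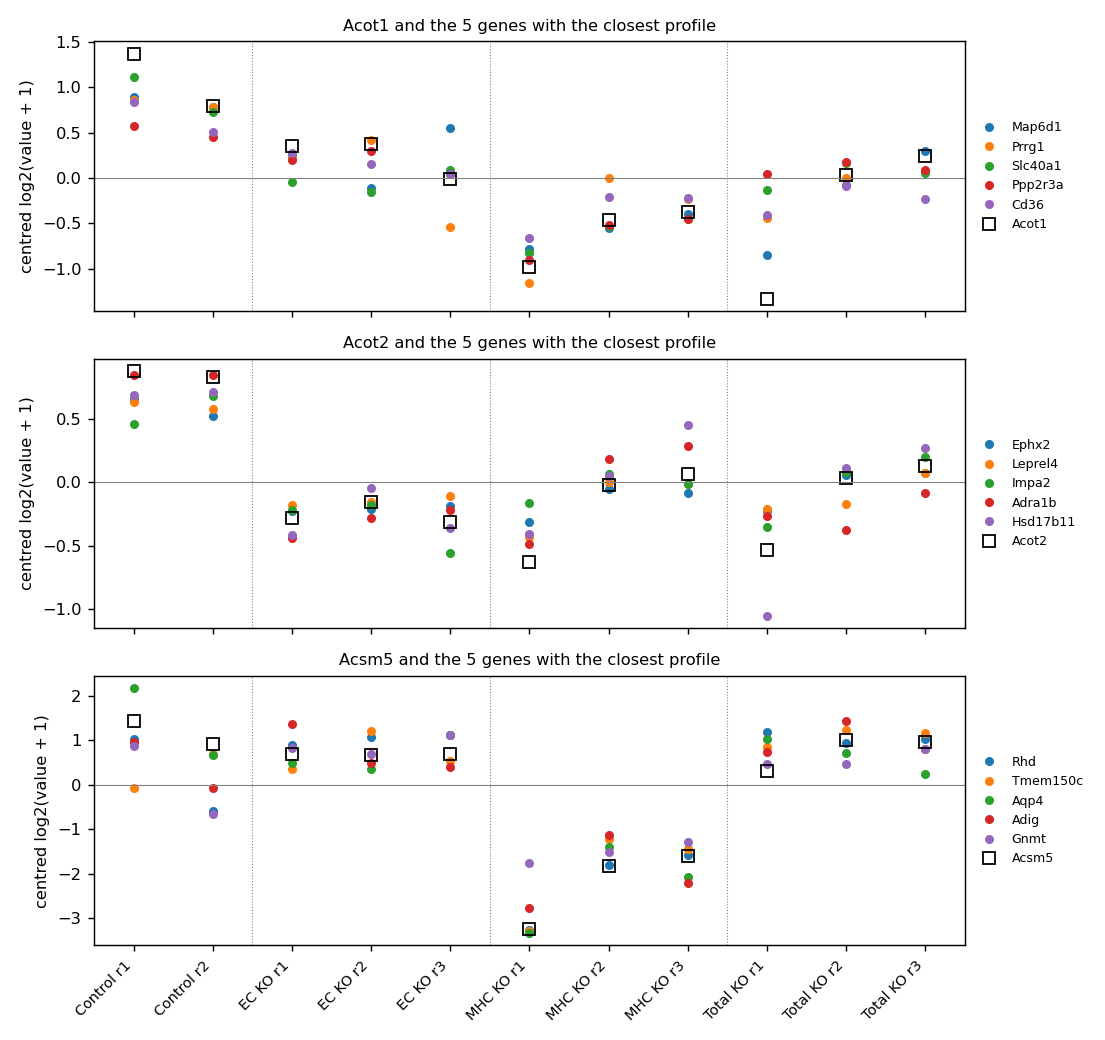
Log2(value + 1) of Acot1, Acot2 and Acsm5 (squares) and of the 5 genes closest to each (points) in the 11 libraries, each gene centred on its own mean. The squares of Acot1 and Acot2 are highest in Control, and those of Acsm5 are lowest in the 3 MHC KO libraries.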

How the data were processed

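Strand-specific libraries were made from total heart RNA after ribosomal depletion, per the labels' protocols. Per the submitters' processing notes, the authors worked on mm10 with TopHat2, with HTSeq 0.8.0 and with DESeq2, whose version is listed as 3.5. Counting mode, strand setting, annotation and filters are not given in the sources used here. The deposited signal values are read counts per gene that the authors divided by a factor per library. Dividing by a library's smallest step gave whole reads, to within 0.05, for 100% of the 257620 values.

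Log2(value + 1) of genes with a mean of at least 10 was fitted with limma 3.58.1 (R 4.3.3, trended prior variance) to all 11 libraries in 4 groups. The 6 contrasts were taken and p-values adjusted by Benjamini-Hochberg over all genes of a contrast. The steps were tested on simulated data. On recovered reads, edgeR 4.0.16 (quasi-likelihood, TMM factors) called 50, 1007 and 14 genes against Control in EC KO, MHC KO and Total KO, and DESeq2 1.42.0 called 162, 1276 and 100, against 41, 739 and 11 by limma. Alternatives also took 0.5 or 5 as pseudocount, a filter at 50 or none, library-total and upper-quartile rescaling, library weights, a fit to the 2 groups compared, and libraries left out.

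Members, lists and tests were chosen with earlier results of these data known. The text names all members, Cd36, up to 6 called genes of lowest p per list and contrast, genes of the thioesterase and Acsm lists, and the 5 genes most alike to Acot1, Acot2 and Acsm5, passing over predicted genes. The results of a gene that this rule names are not reported here. Gene positions and transcripts come from GENCODE M21 and promoters from RefSeq. Replicates are numbered in order of deposit.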

Additional observations from a re-analysis of the deposited data

How the results depend on the processing

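Of 792 member differences under 22 alternative fits, 21 moved by more than the residual SD and 0 called differences changed sign. For EC KO against Control, 41 genes became 22 without a filter, 27 with library weights, 162 with DESeq2 and 64 without replicates 1 of EC KO, MHC KO and Total KO together. Members called there became 1 (Acot2) with a pseudocount of 5, the filter at 50, library totals, the fit to 2 groups, edgeR, DESeq2 and without those 3 libraries. For MHC KO against Control, 739 genes became 63 in the fit to 2 groups and 1276 with DESeq2. For Total KO against Control, 11 genes became 7 without a filter, 26 with library totals, 100 with DESeq2 and 72 without the 3 libraries, and 0 members became 1 (Acot2) with DESeq2 and without the 3 libraries. For EC KO against MHC KO, 2479 genes became 1288 without the 3 libraries, and 2 members became 1 with library totals and without the 3 libraries. For Total KO against MHC KO, 2128 genes became 3553 with library weights and 917 without the 3 libraries. For Total KO against EC KO, 5 genes became 0 without a filter, 3 with the filter at 50, 116 with library weights, 14 in the fit to 2 groups, 70 with DESeq2 and 17 without the 3 libraries.

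With each library left out in turn, genes called ranged from 5 (without Control replicate 2) to 84 (without MHC KO replicate 1) in EC KO against Control, 26 (without Control replicate 1) to 999 in MHC KO against Control, and 1 (without Control replicate 1) to 33 (without MHC KO replicate 1) in Total KO against Control. They ranged from 1455 (without MHC KO replicate 1) to 2582 in EC KO against MHC KO, 1036 (without Total KO replicate 3) to 2272 in Total KO against MHC KO, and 0 to 28 (without MHC KO replicate 1) in Total KO against EC KO. Members called ranged from 0 to 1, 1 to 3, 0 to 1, 1 to 3 and 2 to 3 in the first 5 of these comparisons. Where a Control library was left out, the other was assumed to vary like the other groups. The 1054 values of called list genes kept their direction and 886 stayed called. The cause of these changes was not tested. No paired analysis was possible because the labels tie no Control library to any knockout library. Acsm5 in MHC KO rests on 11 to 38 reads a library, EC KO replicate 1 on 2268403 reads in all, and Control on 2 libraries.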
